A study of Triticum aestivum with 4 samples.

Results

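A wheat grain feeds its seedling from reserves, and the family names of 5 genes with listed methylation regions are tied to that task. The 5 genes were a sucrose synthase, a carboxypeptidase, globulin 1 and a pair of glutamine synthetases. Whether these gene copies serve that task was not tested. They were picked by gene identifier from the authors' lists of regions that differ between an ultrasound and a control library, with earlier results of the same data known, and the values of both libraries were part of that choice. The 5 genes held 7 of the 3119 listed regions, namely 2 of 634 in CpG, 4 of 1745 in CHG and 1 of 740 in CHH, where H is A, C or T. Of these 7 regions, 5 had a level in both libraries.

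The ultrasound group came from grains of the winter wheat breeding line SE15, at 13.6% water, that stood in open dishes 4 cm from a 30 kHz, 70 W ultrasound head for 5 min. The control group came from untreated grains of the same line, with 100 grains per group. Both were germinated in darkness at 20 °C and sampled as seedlings on day 7. The labels name 2 libraries per group, and the lists hold levels of 1 ultrasound and 1 control library, so no difference below has a replicate check and none was tested. The read depth behind a level is unknown. A level averages all cells of the seedling, so a change in the makeup of the tissue and a change within cells cannot be told apart, and methylation levels give no marker check of the tissue label.

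As background, sucrose synthase splits sucrose into fructose and a nucleotide sugar and so feeds carbon into starch, cell walls and respiration. Carboxypeptidases cut amino acids from the carboxyl end of proteins, and in germinating cereal grains members of this group help to release amino acids from stored protein. Globulins are storage proteins laid down while the grain forms. Glutamine synthetase joins ammonium to glutamate and is the entry point of ammonium, including that freed from storage protein, into amino acids. In plants, cytosine methylation is found in CpG, CHG and CHH, each kept up by its own set of enzymes, and CHH methylation has to be placed anew after each round of DNA replication.

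Among the 5 regions with both levels, 4 were lower in the ultrasound library and 1 was higher. The lower ones were the CHG regions of sucrose synthase, carboxypeptidase and globulin 1 and the CHH region of the glutamine synthetase on 4A. The higher one was the CpG region of the glutamine synthetase on 4D, which also had the largest difference of the 5 in points. As a log2 ratio, with 1 percentage point added to each level, the 4A glutamine synthetase was larger in size, at -3.07 against 2.28. In CHG, 78.2% of all 1557 regions with both levels were lower, in CHH 77.1% of 668, and in CpG 28.3% of 480 were higher. The members' directions were known when they were chosen, so nothing is read from 4 of 5. Their median difference was -12.2 percentage points, ultrasound minus control, beside medians of -8.87 points over all CHG, -11.2 over all CHH and -18.3 over all CpG regions.

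**Figure D1:**
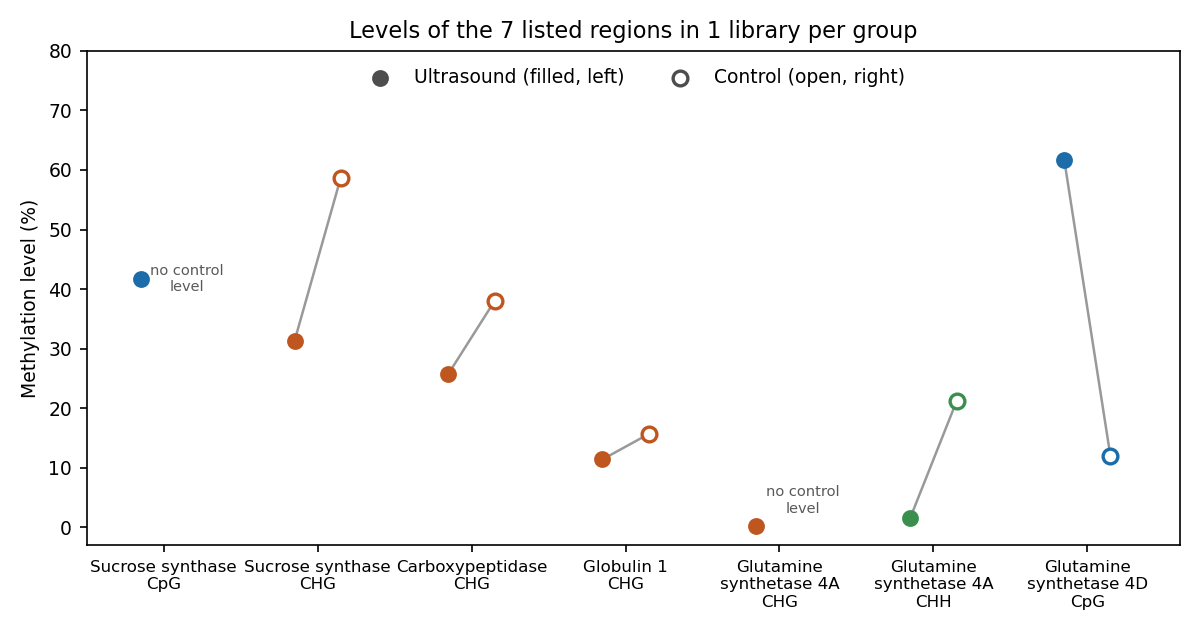
Methylation level in percent of the 7 regions, with the ultrasound library as a filled point on the left and the control library as an open point on the right of each pair. Colours stand for CpG (blue), CHG (orange) and CHH (green). The glutamine synthetase on 4D stands at 61.6% in the ultrasound library and 11.9% in the control library, while the other 4 pairs slope the opposite way, and 2 regions have no control level.

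Sucrose synthase (TraesCS7B02G063400) had the largest CHG difference of the members. Its CHG region of 1424 bp (7B, 68340645 to 68342068) was at 31.3% in the ultrasound library and 58.7% in the control library, a difference of -27.4 points. Only 55 of the 1557 CHG regions had a larger decrease. The control level was itself high for CHG, since 96.7% of the 1579 control levels in this context were at or below it. Set against that starting level, the ultrasound library kept 53.3% of the control level, close to the median of 57.0% over CHG regions with a control level above 0. Ranked by relative change, 46.0% of CHG regions lay at or below sucrose synthase, against 3.60% when ranked by points. Among the 135 CHG regions whose control level lay within 10 points of its own, 23.7% had a difference in points at or below it. Its place near the extreme of the decreases therefore held for points over the whole list and not for the relative change. Among regions of like control level it was less extreme.

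The same stretch was also listed in CpG. The CpG region of 1307 bp (7B, 68340913 to 68342219) shared 1156 bp with the CHG region, 88.4% of its own length. It was at 41.7% in the ultrasound library and had no level in the control library, so no direction can be given for CpG. Of the 634 listed CpG regions, 112 had an ultrasound level and no control level, with a median of 30.6% in the ultrasound library, and 14 had a control level alone. Over the series, 146 of 148 overlapping pairs of a CpG and a CHG region with all levels had one direction, 133 lower and 13 higher in the ultrasound library, and the sucrose synthase pair is not among them.

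The sucrose synthase regions lay on the 3′ side of the gene, although the lists call them upstream. Both regions point to one gene edge at position 68344037: each region's end plus its listed distance, 1969 bp for CHG and 1818 bp for CpG, gives that position. The gene therefore lies at higher coordinates than the regions, and the lists give it the minus strand. The same reading held in every case that positions could check. In 109 pairs of a flanking region and a region overlapping the same gene, the 53 pairs with the label upstream had the flanking region on the 3′ side and the 56 with the label downstream had it on the 5′ side. Another 97 pairs were of flanking regions that share a gene and a label, with the sucrose synthase pair among them. Of these, 52 labelled upstream and 45 labelled downstream gave the same answer. The label thus appears to name where the gene lies as seen from the region.

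**Figure D2:**
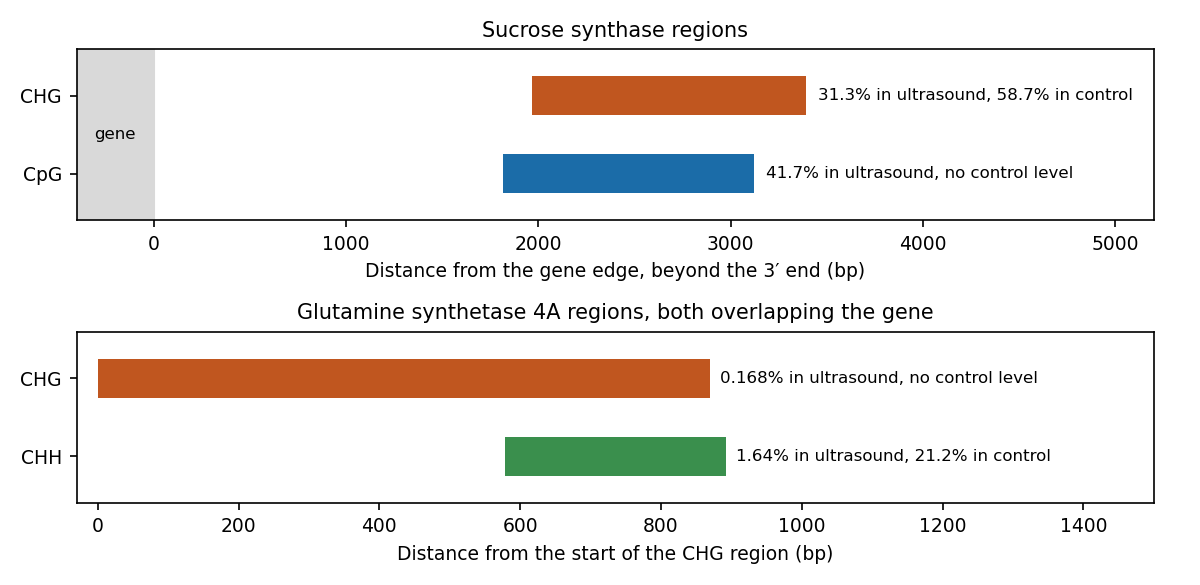
Extent of the overlapping regions of sucrose synthase (upper panel, distance in bp from the gene edge) and of the glutamine synthetase on 4A (lower panel, distance in bp from the start of its CHG region). Bars are drawn to scale, with CHG in orange, CpG in blue and CHH in green, and the level of each library is written beside its bar. The sucrose synthase bars share 1156 bp and the glutamine synthetase bars 291 bp.

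The carboxypeptidase gene (TraesCS1D02G429600) had a moderate difference. Its CHG region of 1583 bp (1D, 481324015 to 481325597) overlapped the gene and was at 25.8% in the ultrasound library and 38.0% in the control library, a difference of -12.2 points. In the whole CHG list, 33.5% of regions had a difference at or below this one. Among the 418 CHG regions whose control level lay within 10 points of its own, that share was 61.2%, so for its starting level the decrease was smaller than that of most. The ultrasound library kept 67.9% of the control level.

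Globulin 1 (TraesCS1B02G330000) had the smallest difference of the members, -4.26 points. Its CHG region of 792 bp (1B, 555938271 to 555939062) overlapped the gene and was at 11.4% in the ultrasound library and 15.7% in the control library. Of the 1218 CHG regions that were lower, 118 had a smaller decrease. The region was also short, since 5.44% of the 1745 CHG regions were of its length or less, beside a median length of 1364 bp. The ultrasound library kept 72.8% of the control level, and with no depth and no replicate a difference of this size cannot be placed against any error.

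The 3 CHG members thus kept their order in both libraries. Sucrose synthase was highest, carboxypeptidase next and globulin 1 lowest, and the distance between the highest and the lowest was smaller in the ultrasound library. The higher the control level of these 3, the larger was the decrease, in points and as a share of the control level. They were chosen with their values known, so no trend is read from them. Whether neighbours in this order differ beyond replicate spread cannot be said with 1 library per group.

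**Figure D3:**
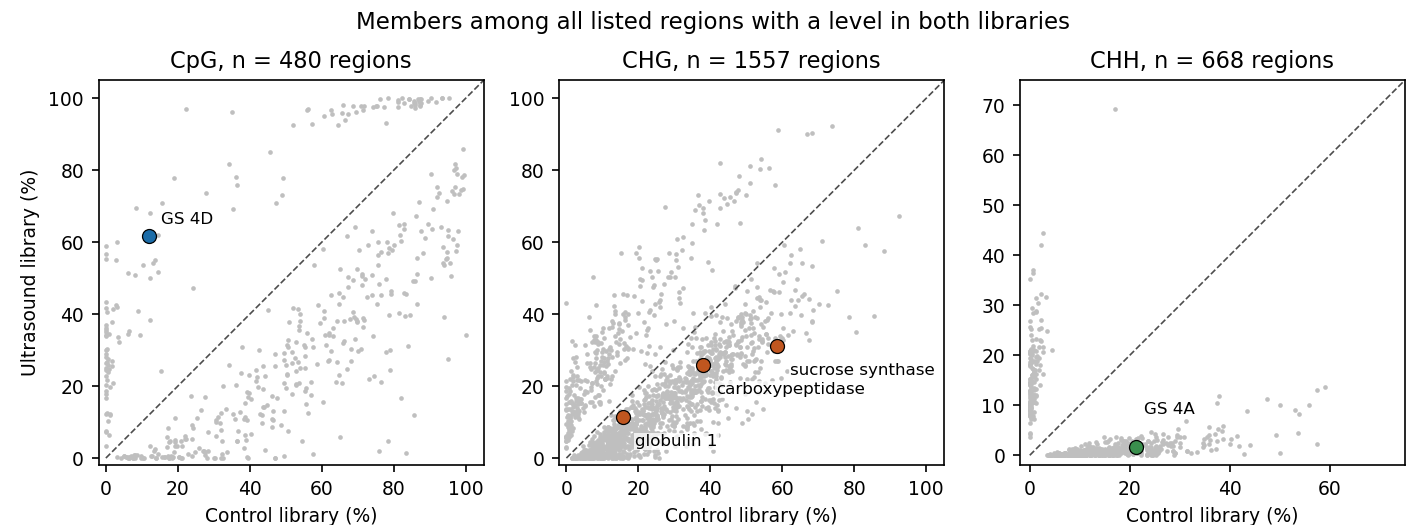
Level in the ultrasound library (vertical axis, percent) against the control library (horizontal axis, percent) for all regions with both levels, 1 panel per context. Grey points are the listed regions, coloured points the members, with GS for glutamine synthetase, and the dashed line marks equal levels. Of the members, globulin 1 lies closest to the line, at 11.4% in the ultrasound library and 15.7% in the control library.

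The glutamine synthetase genes were listed in different contexts and in opposite directions. The gene on 4A (TraesCS4A02G266900) had a CHH region of 314 bp overlapping the gene (4A, 579428324 to 579428637). This region was at 1.64% in the ultrasound library and 21.2% in the control library, a difference of -19.5 points. Of the 668 CHH regions with both levels, 138 had a larger decrease. The ultrasound library kept 7.76% of the control level, and the median over CHH regions with a control level above 0 was 5.71%. A near loss of the listed CHH level was thus common to the lower CHH regions, whose medians were 0.638% in the ultrasound library and 14.8% in the control library.

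A CHG region of 870 bp of the same gene (4A, 579427745 to 579428614) covered 291 bp of the CHH region, 92.7% of its length. Its CHG level was 0.168% in the ultrasound library, and no level was given for the control library. Of the 99 CHG regions with an ultrasound level alone, 10 were lower than this and 88 were higher. In the ultrasound library both non-CpG contexts of this stretch were therefore close to 0. Against those 99 CHG regions, 22 had a control level alone, and in CHH 49 had an ultrasound level alone and 13 a control level alone. As in CpG, the missing level was thus more often that of the control library. Over the series 11 overlapping pairs of a CHG and a CHH region had all levels, of which 10 were lower in both contexts and 1 was split.

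The gene on 4D (TraesCS4D02G240700) had a CpG region of 1089 bp (4D, 403151134 to 403152222) that lay 2319 bp from the gene. It was at 61.6% in the ultrasound library and 11.9% in the control library, which is 49.7 points or 5.17-fold higher in the ultrasound library. Of the 136 CpG regions that were higher in the ultrasound library, 12 had a larger increase. Its control level was low for CpG, with 18.0% of 494 control levels at or below it, and 76.7% of 592 ultrasound levels were at or below its own in that library. Among the 86 CpG regions whose control level lay within 10 points of its own, 91.9% had a difference at or below it. The lists call this region upstream on a plus-strand gene, which by the reading of that label given above would be the 3′ side. No second region of this gene was listed, so its own position gives no separate check.

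The glutamine synthetase genes of opposite direction differ in context, in position to the gene and in subgenome, and no context was listed for both. They share a description, and whether they are matching copies of the same gene was not tested. The 4A regions overlapped the gene in CHG and CHH, and the 4D region lay outside it in CpG. These values therefore give no comparison of one glutamine synthetase gene with the other at a like site. Nitrate reductase genes, whose product reduces nitrate to nitrite on the way to ammonium, were listed on 6D and 6A. Both had a CHG region overlapping the gene, but the place of each region within its gene is not given. Whether they are matching copies of the same gene was not tested, so they too give no comparison at a like site. The gene TraesCS6D02G306000 was at 31.0% in the ultrasound library and 48.4% in the control library (6D, 414625552 to 414626724). The gene TraesCS6A02G017500 was at 25.9% in the ultrasound library and 9.38% in the control library (6A, 8693238 to 8695070). The difference was -17.4 points for the 6D gene and 16.5 points for the 6A gene.

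With the glutamine synthetases, the words for nitrogen assimilation and transport matched 5 regions of 4 genes, and the 4 regions with both levels were split, with 2 lower and 2 higher in the ultrasound library. Over all described regions with both levels, 76.0% of 404 were lower, with a median difference of -8.87 points. The median of the nitrogen list was -0.42 points, but it fell in the wide gap between -17.4 and 16.5 points. No glutamate synthase, asparagine synthetase, ammonium carrier or nitrate carrier was matched among the listed genes, of which 441 of 2811 carry a description.

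Genes of sucrose and starch gave 4 regions of 3 genes. The 2 with both levels were lower in the ultrasound library, as were 76.0% of all described regions. They were sucrose synthase and a starch synthase (TraesCS2A02G373600), which lengthens the glucan chains of starch. The starch synthase region overlapped its gene in CHG and was at 4.84% in the ultrasound library and 14.0% in the control library (2A, 616983293 to 616984858). A trehalose-phosphate synthase region (TraesCS6B02G384500), of a family that makes a sugar signal, had a CpG level in the ultrasound library alone.

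Storage proteins gave 2 regions, both lower in the ultrasound library, a direction shared by 76.0% of all described regions. Beside globulin 1, a type-b avenin-like protein (TraesCS4A02G453800), a gluten-related grain protein, had a CpG region of 451 bp at 54.1% in the ultrasound library and 95.8% in the control library, 1441 bp from the gene (4A, 718031289 to 718031739). Its difference of -41.6 points was larger in size than those of the 4 lower member regions.

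Proteases gave 12 regions, and 10 of the 11 with both levels were lower in the ultrasound library, beside 76.0% of all described regions. Of these, 7 regions of 6 genes were described as a Clp protease proteolytic subunit, and all 7 were lower, by -24.1 to -9.65 points. A gene carried by the plastid genome shares this name, and whether these genes derive from it was not tested. Without these 7 regions, 3 of 4 were lower, near the share of all described regions, carboxypeptidase with -12.2 points among them. A pair of methionine aminopeptidase genes, whose product trims the first residue of new proteins, was split, with TraesCS2A02G427600 at 1.14% in the ultrasound library and 13.4% in the control library in CHH, and TraesCS6D02G196200 at 5.56% in the ultrasound library and 0.142% in the control library in CHG. The largest differences of the list were those of the Clp subunit gene TraesCS1A02G111400 in CpG, at 25.8% in the ultrasound library and 49.9% in the control library, and TraesCS5D02G009400 in CHG, at 14.1% in the ultrasound library and 30.8% in the control library.

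**Figure D4:**
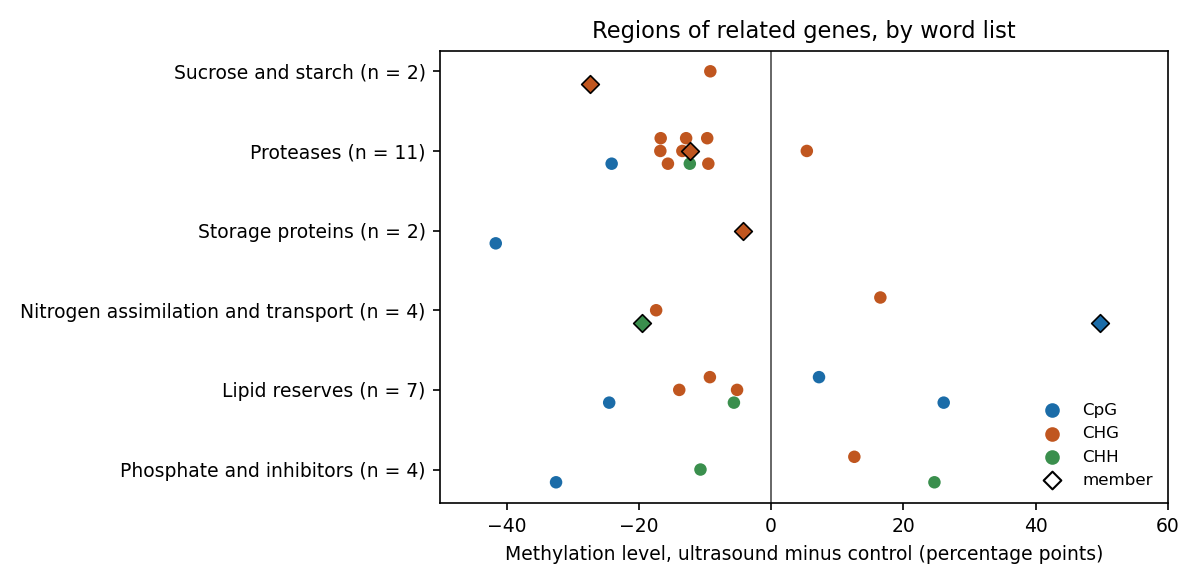
Difference in methylation level, ultrasound minus control in percentage points, for each region with both levels of the 6 word lists of related genes. Colours give the context, and diamonds with a black outline are members. The protease regions lie to the left of 0 except 1, and the nitrogen regions lie on both sides, with the glutamine synthetase on 4D farthest to the right at 49.7 points.

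Listed regions of other genes near the members were few, as over the series. Within 10 kb there was no such region for the 7 member regions, beside 9.97% of all 3119 listed regions with such a neighbour, and within 100 kb there was 1, beside 17.6% over the series. With 7 regions these counts are near the shares of the series. The median gap to the nearest region of another gene was 1194 kb over the series. The nearest neighbour of the 4D glutamine synthetase region lay 44.5 kb away, a CpG region of TraesCS4D02G240900 at 97.9% in the ultrasound library and 87.3% in the control library. That neighbour was also higher in the ultrasound library, by 10.6 points. For carboxypeptidase the nearest region, in CHG at TraesCS1D02G428300, lay 769.6 kb away and had no control level. For globulin 1 it lay 3.65 Mb away, a CpG region of TraesCS1B02G333200 at 0.106% in the ultrasound library and 9.86% in the control library. For the 4A glutamine synthetase it lay 3.99 Mb away, a CHH region of a phosphatidylinositol 4-phosphate 5-kinase gene (TraesCS4A02G271600), and for sucrose synthase 5.64 Mb away, a CHG region of a hexosyltransferase gene (TraesCS7B02G060200) listed at 19.6% in the ultrasound library and 0% in the control library.

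For each member, the described gene closest in its pair of levels carried another name. Likeness was the distance in points between pairs of levels among the described regions of one context, over the 2 libraries. Nearest to carboxypeptidase, at 1.19 points among 230 regions, was a RING-type E3 ubiquitin transferase gene (TraesCS2D02G296700), at 25.9% in the ultrasound library and 39.2% in the control library. Nearest to globulin 1, at 2.12 points, was a calcium-transporting ATPase gene (TraesCS5A02G136200), at 9.35% in the ultrasound library and 15.2% in the control library. Nearest to sucrose synthase, at 4.35 points, was a hexosyltransferase gene (TraesCS7B02G185900), at 26.9% in the ultrasound library and 58.9% in the control library. In CHH, a chloroplastic RAP domain protein gene (TraesCS3B02G102900) lay 0.423 points from the 4A glutamine synthetase among 106 regions. In CpG, the closest to the 4D glutamine synthetase was 8.86 points away among 63 regions, a glycosyltransferase family gene (TraesCS1A02G196100) at 60.1% in the ultrasound library and 3.21% in the control library.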

How the data were processed

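Genomic DNA of wheat seedlings was converted enzymatically and sequenced, per the labels' protocols, while the library titles read WGBS (whole-genome bisulfite sequencing). The tools named, with no roles, are Bismark 0.23.1, Trim Galore 0.6.7, FastQC 0.11.9 and edgeR, per the submitters' processing notes. How regions were defined, with which settings and on which build, is not given in the sources used here. For each context the authors deposited 1 list of regions with levels in percent, and its name refers to a chi-square test and edgeR, per the file headers. Every region had passed that selection, so shares describe listed regions and not the genome.

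The protocols speak of 3 biological samples per group and the labels name 2 libraries, of which number 1 of each group was analysed. The control column is headed by a letter without explanation in the labels. It was taken as control because only 1 column stands beside that of the ultrasound library and only 2 groups exist; an error there would make every control value wrong. No other column of values was left unassigned.

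Each difference is the ultrasound level minus the control level, in percentage points, and regions lacking a level in either library were left out of them. A member's place is the share of regions of its own context with a difference at or below its own. Related genes were 6 sets of words matched to the lists' descriptions. The members and word lists were chosen with earlier results of these data known. Named were all members, the 2 largest absolute differences per word list (all regions in lists of 5 or fewer), the described region most alike in levels and the nearest listed region. The methionine aminopeptidases and the acyl-coenzyme A oxidase were named after their values were seen, and for members in CpG and CHH the likeness rule was applied within their own context. No test was run, and no intervals were given because coverage is not in the lists. Python 3.11.15, pandas 2.3.3 and matplotlib 3.10.9 were used. The alternatives tried were other scales and rankings, minimum differences, subsets of regions and other windows.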

Additional observations from a re-analysis of the deposited data

How the results depend on the processing

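No paired analysis was possible because the lists hold 1 library per group and no result comes from a test; for the same reason no library could be left out. All 5 differences kept their direction as log2 ratios and as differences of log odds, but on both scales the 4A glutamine synthetase had the largest difference in size, at -3.07 and -2.53 against 2.28 and 2.43 for the 4D gene. With a minimum of 25 points, 1 member was lower instead of 4, and with 5 or 10 points it was 3. The median difference of the members, -12.2 points, was -12.2 over CHG regions only, an alternative added after the data were seen. The mean was -2.73 points, because the 4D glutamine synthetase enters it at 49.7. Leaving out 1 gene at a time gave -8.24 points without sucrose synthase or the 4A glutamine synthetase, -11.9 without carboxypeptidase and -15.9 without globulin 1 or the 4D glutamine synthetase. Within 100 kb there was 1 listed region of another gene, against 0 within 10 kb.

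The place of a member depended on the ranking. Over the 6 alternatives, the share of regions at or below sucrose synthase was 3.00% to 46.0%, for carboxypeptidase 31.8% to 64.0% and for the 4A glutamine synthetase 15.9% to 59.9%, each highest by relative change. It was 68.1% to 73.8% for globulin 1 and 91.9% to 99.4% for the 4D glutamine synthetase. The lists of related genes had 23 of 30 regions lower, 19 of 25 without the members and 16 of 23 without the Clp subunit genes, the last added after the data were seen. The share lower among described regions was 76.0%, so these counts are near the background. Depth is unknown, so small differences such as that of globulin 1 cannot be set against counting error.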

Other observations

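The words for lipid reserves matched 9 regions. Of the 7 with both levels, 5 were lower in the ultrasound library, near the 76.0% of all described regions. The median difference of the 7 was -5.61 points. An acyl-coenzyme A oxidase gene (TraesCS7D02G143200), whose product takes the first step of fatty acid breakdown in peroxisomes, was lower in both contexts in which it was listed, at 20.6% in the ultrasound library and 34.4% in the control library in CHG and at 0.0833% in the ultrasound library and 5.69% in the control library in CHH. The largest differences of the list were those of a phospholipase D gene (TraesCS5A02G202000), at 98.0% in the ultrasound library and 71.8% in the control library, and of a 3-ketoacyl-CoA synthase gene (TraesCS2A02G507700), which lengthens fatty acids, at 74.8% in the ultrasound library and 99.3% in the control library, both in CpG. Phospholipase D acts on membrane lipids, so neither gene is a reserve enzyme by its name. The remaining matches were phospholipase, fatty acyl-CoA reductase and further 3-ketoacyl-CoA synthase genes. The counts of this list therefore describe its words and not the breakdown of lipid reserves.

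The words for phosphate release and inhibitors matched 4 regions, 2 lower and 2 higher in the ultrasound library, beside 76.0% of described regions lower. A purple acid phosphatase gene (TraesCS5D02G449800), of a family that frees phosphate, had a CpG region overlapping the gene (5D, 498556775 to 498557499). This region was at 26.1% in the ultrasound library and 58.6% in the control library. The other 3 were signalling or trafficking genes by their names. A phosphatidylinositol 3-kinase VPS34 gene (TraesCS5A02G054400) was at 27.0% in the ultrasound library and 2.25% in the control library in CHH. The phosphatidylinositol 4-phosphate 5-kinase gene was at 1.63% in the ultrasound library and 12.3% in the control library in CHH. A guanosine nucleotide diphosphate dissociation inhibitor gene (TraesCS5D02G048100) was at 16.4% in the ultrasound library and 3.75% in the control library in CHG.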
